A study of Mus musculus with 3 samples.

Results

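Kit, Cd34, Myb, Meis1, Hoxa9, Hoxa10, Gata2 and Sox4 are genes of blood stem and progenitor cells that are also widely used to recognise leukemia blasts. They were followed here in splenic macrophages of mice that carried acute myeloid leukemia. The 8 genes were taken by name and matched to the tables through their NCBI mouse gene IDs, out of 17615 genes listed in any library, and all 8 were found. GFP+BFP+ leukemia cells with a high level of mM-CSF, with a high level of sM-CSF, or with neither (the control) had been given to C57BL/6J mice of 6 to 8 weeks, 800000 cells to each animal and without irradiation. Every group thus carried leukemia, the controls included, and survival was 30 to 40 days. The sorted cells were GR1-, CD115int and F4/80+ and were taken from the spleen on day 18. M-CSF is the growth factor that maintains macrophages, and what the m and the s stand for is not said in the labels. They also do not say whether leukemia cells carrying the fluorescent proteins were removed in the sort, how many animals gave each library, or which lesion drives the leukemia. There was 1 library per group, so no difference below has a replicate check, none was tested between conditions, and each describes these 3 libraries only.

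As background, KIT is the receptor tyrosine kinase for stem cell factor and is carried by stem cells, early progenitors and mast cells. CD34 is a sialomucin on progenitor and endothelial surfaces. GATA2, MYB and SOX4 are transcription factors of immature blood cells, and each also acts elsewhere: GATA2 in mast cells and basophils, MYB in erythroid and lymphoid precursors, SOX4 in B and T cell development. HOXA9 and HOXA10 are homeodomain factors that bind DNA with MEIS1, a partner of the TALE class, and the HOXA9 and MEIS1 pair is a classic driver of self-renewal in myeloid leukemia. None of the 8 is normally a gene of mature macrophages, and none is restricted to leukemia cells.

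The libraries held about 8570730 to 9088200 estimated counts each. FPKM, the unit of level used here, is scaled to gene length and to library size. Values for the 3 libraries stand in the order control, mM-CSF, sM-CSF. Genes behind the sort were present in all of them: Csf1r, which encodes CD115, at 268, 222 and 149 FPKM, and Adgre1, which encodes F4/80, at 101, 67.5 and 65.5 FPKM. Intervals are exact 95% intervals for counting error and say nothing about the spread between animals.

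All 8 genes reached 1 FPKM in at least 1 library. The mM-CSF library had 8 of 8 at this level, and the control and the sM-CSF library 6 each. The genes that crossed this level were Hoxa9 and Hoxa10. Only Kit, Myb and Sox4 were at 5 FPKM or more in every library. Together the 8 genes summed to 82.8, 54.2 and 78.4 FPKM. Kit made up 42.3%, 11.1% and 44.2% of these sums, so that the lower total of the mM-CSF library goes with Kit.

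**Figure D1:**
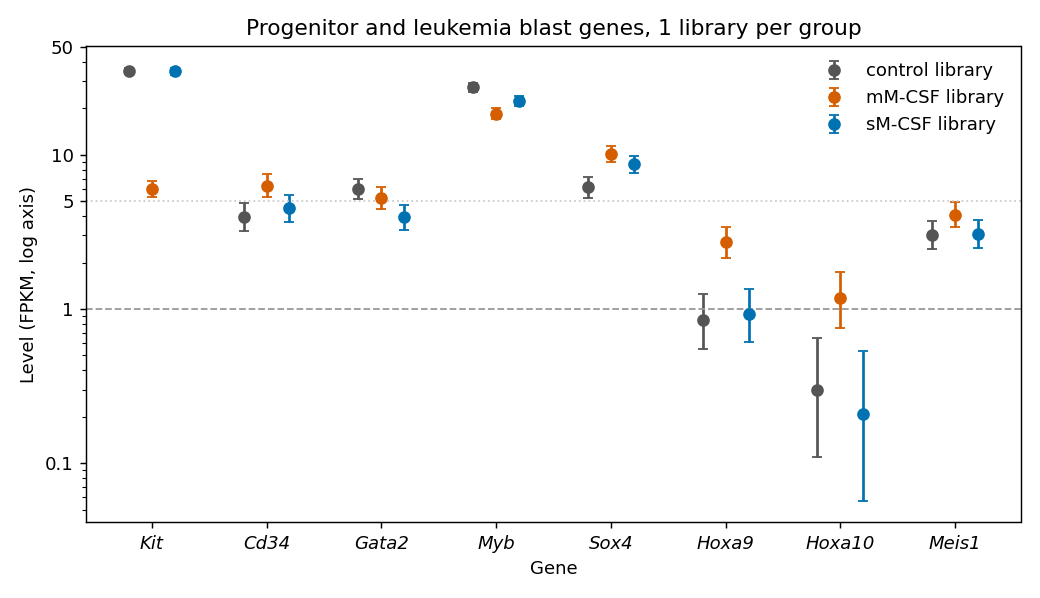
Level of each of the 8 genes (FPKM, log axis) by library, 1 point for each of the 3, with exact 95% Poisson intervals for counting error; the dashed line is 1 FPKM and the dotted line 5 FPKM. Kit is at 6.02 FPKM in the mM-CSF library, below the control (35.03) and the sM-CSF library (34.7), while Hoxa9 and Hoxa10 pass 1 FPKM only there.

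The order of the levels differed mainly in the place of Kit. In the control it ran Kit, Myb, Sox4, Gata2, Cd34, Meis1, Hoxa9, Hoxa10, and in the sM-CSF library it was the same except that Cd34 stood above Gata2. In the mM-CSF library Myb came first, then Sox4, Cd34, Kit, Gata2, Meis1, Hoxa9 and Hoxa10. Neighbours whose counting intervals overlapped were Sox4 and Gata2, Cd34 and Meis1, and Hoxa9 and Hoxa10 in the control. In the mM-CSF library Cd34, Kit, Gata2 and Meis1 formed a run of overlapping neighbours, and in the sM-CSF library Cd34, Gata2 and Meis1 did.

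The surface receptor gene Kit (NCBI gene 16590) had the largest difference of the 8 on the scale of log2(FPKM + 1), although the ratio of count shares between mM-CSF and sM-CSF was larger for Hoxa10, from few counts. It was at 35.03, 6.02 and 34.7 FPKM, from 1669, 272 and 1630 estimated counts. The mM-CSF library thus stood apart, and the intervals of the control (33.4 to 36.8 FPKM) and the sM-CSF library (33.0 to 36.4 FPKM) overlapped. Relative to the control, the share of counts was 5.79-fold lower with mM-CSF (5.09 to 6.60), and relative to the sM-CSF library it was 5.74-fold lower (5.05 to 6.55). Between sM-CSF and control the ratio was 0.99 (0.93 to 1.06). On the scale of log2(FPKM + 1) mM-CSF minus control was -2.36, and 147 of 9789 genes with at least 5 FPKM in either library (1.5%) had a lower difference. In bulk samples such as these, fewer Kit-expressing cells and less Kit RNA per cell cannot be told apart.

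The stretch of the Kit promoter before the annotated 5′ end is shown because Kit carries the largest difference on the log2(FPKM + 1) scale. It is written 5′ to 3′ on the forward strand, chr5:75574737-75574915 in GRCm38.p6, from RefSeq, and the bases nearest the start, which GENCODE M21 annotates as Kit UTR, are left out.

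Kit: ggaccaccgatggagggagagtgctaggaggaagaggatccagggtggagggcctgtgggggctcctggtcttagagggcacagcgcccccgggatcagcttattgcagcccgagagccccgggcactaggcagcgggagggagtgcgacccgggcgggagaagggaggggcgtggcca

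No capitals appear in it because none of the letters searched for GATA factors (AGATAA), MYB (AACNG), RUNX (TGTGGT), MEIS (TGACAG) or the E-box (CANNTG), on either strand, was found in the 250 bases before either RefSeq start of Kit. Of 32851 promoter windows of this length, 9.99% held AGATAA, 74.2% AACNG, 14.0% TGTGGT, 15.9% TGACAG and 66.2% CANNTG. The absence says only that these letters are not in this window. The Kit window was 70.8% G and C, against a median of 52.4% over all windows.

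Cd34 (gene 12490), the other surface gene of the set, went the opposite way at a lower level. It was at 3.97, 6.31 and 4.53 FPKM (93, 136 and 101 counts). The mM-CSF library was the highest, with a share of counts 1.55-fold that of the control (1.18 to 2.04) and 1.41-fold that of the sM-CSF library (1.08 to 1.84). The control and sM-CSF libraries were not distinguishable by counting error, at a ratio of 1.10 (0.82 to 1.48). Per length Kit was 8.82 times as abundant as Cd34 in the control, 7.65 times in the sM-CSF library and 0.95 times in the mM-CSF library. No difference of Cd34 reached 2-fold.

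Gata2 (gene 14461) was at 5.98, 5.24 and 3.92 FPKM (178, 148 and 115 counts). Here the sM-CSF library was the lowest, with a share of counts 1.52-fold below the control (1.20 to 1.94) and a difference of -0.50 on the log2(FPKM + 1) scale. Against it the mM-CSF library was 1.34-fold higher (1.05 to 1.73). Between mM-CSF and control the interval included 1 (ratio 0.88, 0.70 to 1.10), and the sign of that difference turned from -0.16 to 0.05 when the trend with gene length described below was removed.

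Myb (gene 17863), which keeps progenitors immature and dividing, was the highest of the transcription factor genes in every library. It was at 27.5, 18.5 and 22.4 FPKM (879, 552 and 701 counts). The control was highest and the mM-CSF library lowest, with shares of counts 1.5-fold (1.35 to 1.67) and 1.23-fold (1.12 to 1.36) below the control in the mM-CSF and sM-CSF libraries. The difference of -0.55 between mM-CSF and control became -0.25 with the length trend removed, close to the value for sM-CSF (-0.29, or -0.25 without the trend).

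Sox4 (gene 20677), a factor of the SOXC group, was at 6.16, 10.2 and 8.68 FPKM (167, 261 and 232 counts), lowest in the control. The share of counts was 1.66-fold higher than in the control with mM-CSF (1.36 to 2.02) and 1.41-fold higher with sM-CSF (1.15 to 1.73). The mM-CSF and sM-CSF libraries were not distinguishable by counting error (ratio 1.17, 0.98 to 1.41), with a difference of 0.20 on the log2(FPKM + 1) scale. In TPM, where the median of all genes shifted by -0.31, it was -0.09, or 0.22 relative to that shift. TPM is FPKM times a constant for each library, so this relative value restates the FPKM difference. Sox4 was the 1 gene of the 8 whose interval lay above 1 in both comparisons with the control, which share the control library. In that library Kit was 5.69 times as abundant as Sox4, in the sM-CSF library 3.99 times, and in the mM-CSF library 0.59 times.

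The homeodomain genes were low everywhere and highest with mM-CSF. Hoxa9 (gene 15405) was at 0.85, 2.71 and 0.93 FPKM, from 25, 76 and 27 counts. The mM-CSF library lay outside the intervals of the others, with a share of counts 3.22-fold that of the control (2.03 to 5.29) and 2.94-fold that of the sM-CSF library (1.87 to 4.74). The control and sM-CSF libraries could not be told apart (ratio 1.10, 0.61 to 1.97). Hoxa10 (gene 15395) was likewise highest with mM-CSF, at 0.30, 1.17 and 0.21 FPKM from 6, 25 and 4 counts. Its ratios of 4.42 (1.77 to 13.2) and 6.52 (2.25 to 25.8) for mM-CSF against control and sM-CSF rest on few counts, and their intervals are wide. Hoxa9 missed the size rule used below only through its minimum of 5 FPKM, since its difference from the control was 1.00 on the log2(FPKM + 1) scale and 1.21 with the length trend removed. Of all genes with at least 5 FPKM, 8.86% had a higher difference than Hoxa9, and 1.67% did with the trend removed.

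Hoxa9 and Hoxa10 are neighbours in the HOXA cluster on chromosome 6 and were higher in the same library, so their promoter windows are printed, 250 bases before each RefSeq start in GRCm38.p6, reverse strand, 5′ to 3′. The windows are chr6:52227371-52227620 for Hoxa9, which lies inside the Hoxa9 gene but outside its exons in GENCODE M21, chr6:52234940-52235189 for the inner start of Hoxa10, likewise inside that gene and outside its exons, and chr6:52240855-52241104 for the outer start, which lies in no annotated gene. Capitals mark matches to AACNG, the letters searched for MYB, on either strand.

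Hoxa9: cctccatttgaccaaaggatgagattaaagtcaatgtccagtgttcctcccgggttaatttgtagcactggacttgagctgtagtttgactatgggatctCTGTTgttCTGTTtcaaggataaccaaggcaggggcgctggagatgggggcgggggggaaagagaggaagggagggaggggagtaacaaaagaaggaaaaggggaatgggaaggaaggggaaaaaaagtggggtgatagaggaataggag

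Hoxa10, inner start: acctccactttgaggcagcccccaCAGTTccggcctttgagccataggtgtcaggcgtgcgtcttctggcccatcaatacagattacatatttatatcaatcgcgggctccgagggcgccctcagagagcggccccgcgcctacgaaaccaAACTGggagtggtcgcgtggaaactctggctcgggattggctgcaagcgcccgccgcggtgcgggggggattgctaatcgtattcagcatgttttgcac

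Hoxa10, outer start: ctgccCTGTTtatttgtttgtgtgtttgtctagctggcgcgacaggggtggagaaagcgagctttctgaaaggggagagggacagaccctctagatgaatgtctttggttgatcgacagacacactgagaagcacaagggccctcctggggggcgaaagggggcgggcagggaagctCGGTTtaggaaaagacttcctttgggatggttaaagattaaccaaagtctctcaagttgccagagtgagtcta

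Each window held 2 such matches where 74.2% of all windows hold at least 1, and none to the letters searched for GATA factors, RUNX or MEIS. The Hoxa9 window also held 1 E-box match. A match is a description of the letters and not a binding site.

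Meis1 (gene 17268), the partner gene, was at 3.03, 4.09 and 3.07 FPKM (94.1, 121 and 94.6 counts). The mM-CSF library was the highest, with a share of counts 1.36-fold that of the control (1.03 to 1.81), and the interval for sM-CSF against control included 1 (1.03, 0.76 to 1.38). The difference between mM-CSF and control was 0.34, or 0.61 with the length trend removed. In TPM, which shifted the median of all genes by -0.45, it was -0.03, or 0.42 relative to that shift, which again restates the FPKM difference. Hoxa9 was 0.28, 0.66 and 0.30 times as abundant as Meis1 per length. Meis1 was the only gene of the 8 whose estimated counts were not whole, and how its reads were divided is not given. In the RefSeq annotation Cd34, Gata2, Sox4, Hoxa10 and Meis1 each overlap a long noncoding RNA gene, and since it is not given whether counting used the strand, reads of such pairs cannot be told apart.

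**Figure D2:**
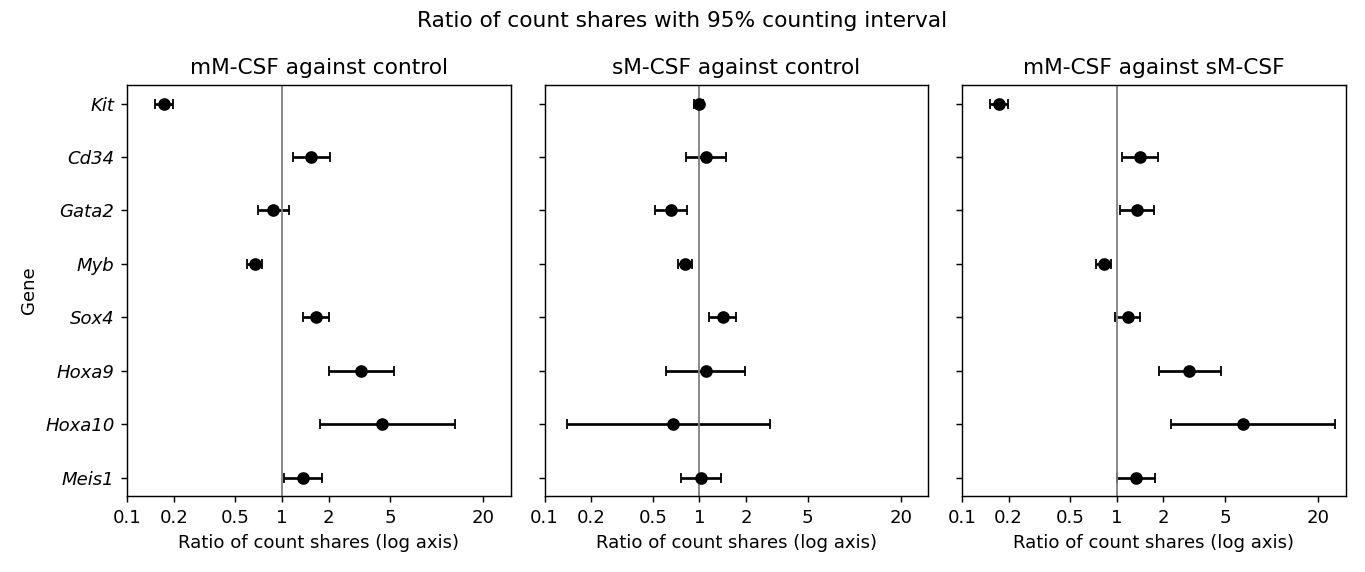
Ratio of count shares of each gene (log axis) in the 3 comparisons, with exact conditional 95% intervals for counting error; the vertical line is a ratio of 1. Kit lies far below 1 wherever the mM-CSF library is compared, while Hoxa9 and Hoxa10 lie above 1 there and include 1 between sM-CSF and control.

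Calls used a size rule: a difference of 1 or more in log2(FPKM + 1), which is 2-fold, in a gene with a minimum of 5 FPKM in whichever library was higher. Between mM-CSF and control 5 of the 8 genes had this minimum, of which 1, Kit, was lower and 0 were higher. Among all 9789 genes with the minimum, 24.1% were called (8.97% higher and 15.1% lower), so 1 of 5, or 20%, is near the background. The median difference of the 8 was 0.45, against -0.07 over all genes at 1 FPKM or more. Between sM-CSF and control 0 of 4 genes with the minimum were called, where the background is 2.42% (0.785% higher and 1.63% lower), and the 6 genes at 1 FPKM or more had a median of -0.00 against 0.02. Between mM-CSF and sM-CSF 1 of 5 was called, again Kit and again lower, where 12.5% of all genes were called (3.79% higher and 8.73% lower), and the median was 0.33 against -0.11.

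The counting interval of the ratio of shares left out 1 for 7 of the 8 genes between mM-CSF and control, 5 above and 2 below. The same held for 74.1% of all genes at 1 FPKM or more (33.1% above and 41.0% below), so an interval that leaves out 1 was common and is no mark of the 8 genes. For sM-CSF against control it left out 1 for Sox4 above and for Gata2 and Myb below, against a background of 48.0% (23.3% above and 24.8% below). Between mM-CSF and sM-CSF it did so for 7 genes, 5 above and 2 below, against 68.2% (27.9% above and 40.3% below). The 3 comparisons share libraries, so their values are given side by side and not as separate support.

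Differences between the mM-CSF and control libraries ran with gene length over all genes. The median difference was 1.09 in the shortest of 20 length bins and -1.21 in the longest. Kit, at 5193 bases in the control table, is the longest of the 8, and its bin (4804 to 5573 bases) had a median of -0.73. With the trend removed Kit differed by -1.63 between mM-CSF and control and stayed past 2-fold, and 3.68% of genes then had a lower value. Between mM-CSF and sM-CSF it differed by -1.72 without the trend. The other 7 genes, between 2177 and 3498 bases in the control table, lay where the median was between 0.15 and -0.30. What gives rise to the trend was not tested.

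**Figure D3:**
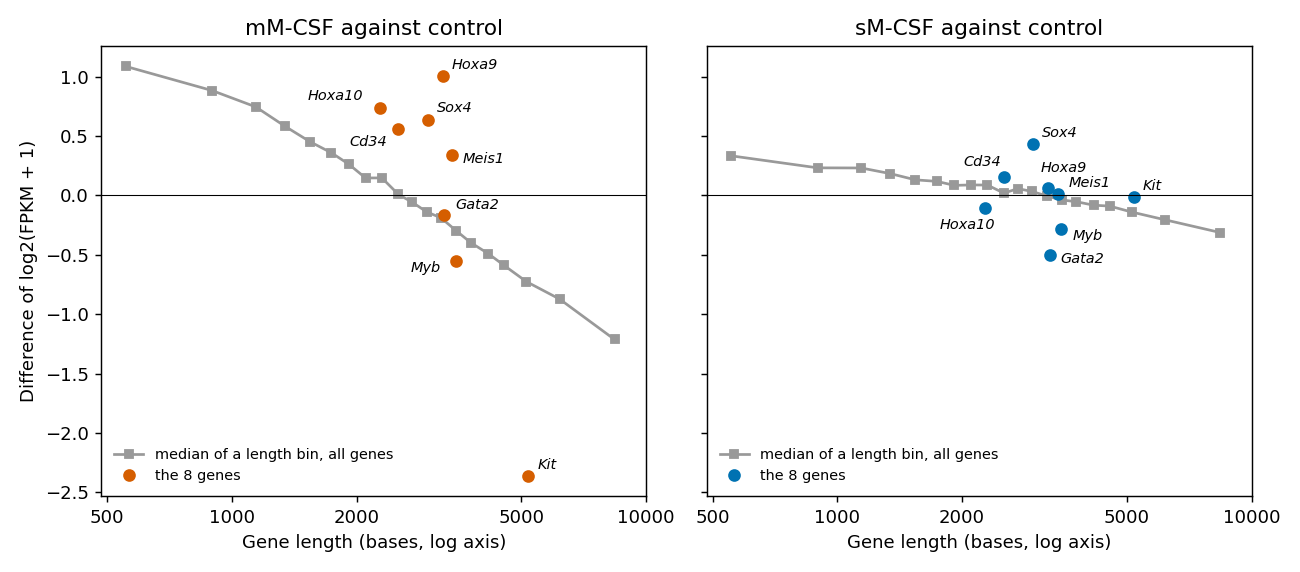
Difference of log2(FPKM + 1) against gene length (bases, log axis) for mM-CSF (left) and sM-CSF (right) against control; grey squares are medians of all genes in 20 length bins and coloured points are the 8 genes. Kit lies well below the grey line on the left (-2.36 against a bin median of -0.73) and near 0 on the right.

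The genes that work with the 8 were followed in lists. Their calls stand beside the shares of all genes: 8.97% higher and 15.1% lower between mM-CSF and control. For sM-CSF against control these shares were 0.785% and 1.63%, and between mM-CSF and sM-CSF 3.79% and 8.73%. Of the 9 other members of the cluster 3 reached 1 FPKM in any library and 0 reached 5. Hoxa7, which adjoins Hoxa9, was at 2.2, 2.38 and 1.49 FPKM, and the ratio of shares for mM-CSF against control was 1.09 (0.68 to 1.74). Hoxa5 was at 1.88, 1.61 and 1.25 FPKM (0.86, 0.49 to 1.49), and Hoxa3 at 1.42, 0.32 and 0.57 FPKM (0.22, 0.08 to 0.52). By FPKM Hoxa9 was the highest HOXA gene in the mM-CSF library, and Hoxa7 in the control and sM-CSF libraries. These places rest on few counts. With mM-CSF Hoxa9 had 76 and Hoxa7 40. Hoxa7 and Hoxa5 had 39 and 32 in the control, and 26 and 21 with sM-CSF.

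**Figure D4:**
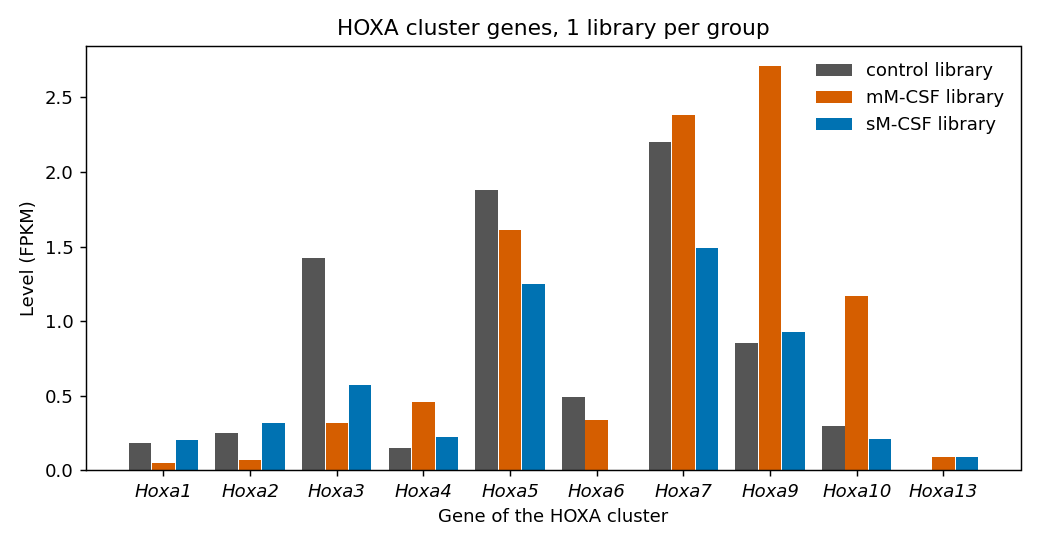
Level (FPKM, bars from 0) of the HOXA cluster genes listed in any library, in each library, with 1 library a group and no error bar. Hoxa9 (2.71 FPKM) and Hoxa10 (1.17 FPKM) are higher in the mM-CSF library than in the control and sM-CSF libraries. Hoxa7 and Hoxa5 are at similar levels in the control and mM-CSF libraries.

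The TALE partners of HOX proteins showed no called gene in any comparison (0 of 3 with the minimum). Pbx2 was the highest, at 31.1, 31.6 and 33.9 FPKM, and Pbx3, a partner of HOXA9 in leukemia, was at 4.05, 4.95 and 3.71 FPKM. Among 12 MLL and menin regulators of HOXA genes, 5 were lower and 0 higher between mM-CSF and control (median -0.52), 0 were called between sM-CSF and control (median -0.21), and 3 were lower between mM-CSF and sM-CSF. The lower genes included Kmt2a, the MLL methyltransferase, at 27.5, 8.58 and 17.99 FPKM, and Dot1l, the H3K79 methyltransferase, at 20.7, 5.80 and 16.7 FPKM. With the length trend removed Kmt2a differed by -0.36 and Dot1l by -0.86, both short of 2-fold, and the median of the list was -0.19. Men1, which encodes menin, was at 25.9, 25.2 and 26.1 FPKM.

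For KIT, the ligand gene Kitl was low at 1.64, 0.95 and 1.05 FPKM. Of 15 ligand and signalling genes with the minimum, 3 were lower and 0 higher between mM-CSF and control, near the 15.1% of all genes called lower. All 17 measured genes had a lower level in the mM-CSF library, with a median of -0.78 that was -0.16 with the length trend removed. Cbl, a ubiquitin ligase that ends signalling from KIT, was at 36.1, 1.15 and 12.5 FPKM, and was lower in all 3 comparisons, also with the trend removed (-3.40, -1.33 and -2.04). The adaptor gene Gab2 was at 11, 2.48 and 5.88 FPKM and the exchange factor gene Sos1 at 7.54, 2.49 and 5.14 FPKM, and neither stayed past 2-fold between mM-CSF and control without the trend (-0.94 and -0.08). Cbl was also the 1 gene of this list called for sM-CSF against control and for mM-CSF against sM-CSF.

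Among relatives of GATA2, MYB, SOX4 and CD34, Podxl, a sialomucin gene related to Cd34, was the 1 gene called, lower in both comparisons with the control at 6.83, 1.96 and 0.77 FPKM. Its difference for mM-CSF was -0.65 without the length trend. Gata1, the erythroid and megakaryocytic GATA gene, was at 21.5, 16.8 and 11.9 FPKM, and its cofactor gene Zfpm1 at 44.1, 30.4 and 29.4 FPKM. Mybl2, the cell cycle relative of Myb, was at 10.9, 9.98 and 7.34 FPKM.

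Of 14 stem and progenitor transcription factor genes with the minimum, 2 were lower and 0 higher between mM-CSF and control, near the 15.1% of all genes called lower. The median was -0.13 (-0.03 without the length trend). The 2 lower genes were Tal1, at 17.9, 7.55 and 7.47 FPKM, and the lymphoid factor gene Ikzf1, at 103.8, 50.4 and 93.8 FPKM. Neither stayed past 2-fold without the trend (-0.63 and -0.32), while Spi1, not called at -0.69, passed it (-1.19). Tal1 was the 1 gene of 13 called between sM-CSF and control, where it stayed past 2-fold without the trend (-1.07). Between mM-CSF and sM-CSF 0 of 14 were called. Runx1 was at 14.8, 8.11 and 13.9 FPKM and Gfi1b at 17.8, 15.8 and 9.96 FPKM.

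Stem and progenitor surface genes went both ways, as Kit and Cd34 did. Of 9 with the minimum between mM-CSF and control, 2 were higher and 2 lower (median 0.03). Il3ra, the alpha chain of the IL-3 receptor and a marker of leukemia stem cells, was at 13.6, 42.7 and 17.95 FPKM, and stayed past 2-fold without the length trend (1.03). Ly6a, which encodes Sca-1, was at 162.3, 531.8 and 174.6 FPKM (1.71, but 0.86 without the trend). The lower genes were the receptor kinase gene Flt3, at 46.0, 6.25 and 42.0 FPKM, and Csf2rb, the shared beta chain gene, at 54.9, 13.1 and 41.9 FPKM, whose counts are uncertain because it has a closely related paralog. For sM-CSF against control 0 of 10 were called, and between mM-CSF and sM-CSF 3 of 11 were higher and 2 lower.

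Myeloblast granule genes, which mark the step after the early progenitor, were higher in the mM-CSF library. Of 8 with the minimum 7 were higher and 0 lower against the control (median 1.63, or 0.98 without the length trend), and the same count was obtained against the sM-CSF library (median 1.40). Without the trend Mpo, Elane, Prtn3 and Ctsg stayed past 2-fold against the control, while Ms4a3 (0.98), Clec12a (0.96) and Nkg7 (0.71) did not. Against the sM-CSF library only Nkg7 of the 7 fell short (0.46). Mpo, which encodes myeloperoxidase, was at 63.5, 166.2 and 62.3 FPKM, and its difference of 1.37 was 1.38 without the trend. Elane, for neutrophil elastase, was at 54.5, 396.7 and 51.7 FPKM. Between sM-CSF and control 0 of 8 were called and the median was -0.05. The list is wider than granule proteins, since it also holds Ms4a3, Clec12a and Plac8, and Nkg7, which NK cells also express. Kit and the genes of this list thus went opposite ways between mM-CSF and control. Hoxa9, Hoxa10, Cd34, Sox4 and Meis1 were on the side of the list, Myb was on the side of Kit, and the interval of Gata2 included 1.

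**Figure D5:**
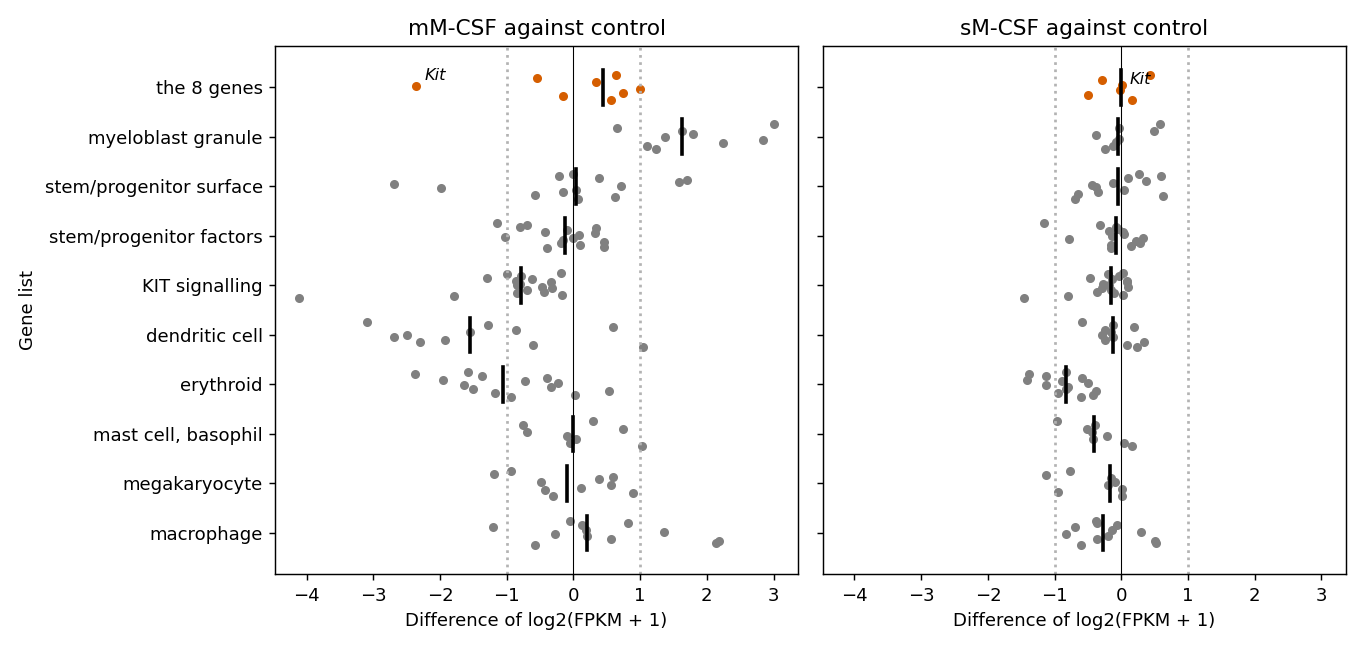
Difference of log2(FPKM + 1) for mM-CSF (left) and sM-CSF (right) against control, for genes at 1 FPKM or more in either library, 1 point per gene with a black bar at the median of the list; the dotted lines mark 2-fold. Kit lies among the lower genes on the left, at -2.36, and at -0.01 on the right, while the myeloblast granule list has a median of 1.63 on the left and -0.05 on the right.

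Markers of other cells that express members of the set are given beside these results, and their part in them was not tested. Mast cell and basophil markers (12 genes, with Tpsab1, Tpsb2 and Mrgprb2 listed in none of the libraries and Mcpt4 at 0 in the control) summed to 40.8, 52.4 and 27.2 FPKM, and the defining gene Cpa3 was at 3.27, 3.13 and 3.40 FPKM, with a ratio of shares of 0.96 (0.61 to 1.52) between mM-CSF and control. In that comparison 3 of these genes had the minimum of 5 FPKM, of which 1 was higher and 0 lower, and of the 8 at 1 FPKM or more 4 had a higher and 4 a lower level. Among the lower were Ms4a2, for a chain of the IgE receptor, at 1.95, 0.74 and 1.24 FPKM (ratio 0.37, 0.20 to 0.65), and Il1rl1, for the IL-33 receptor, at 4.14, 2.18 and 2.78 FPKM (0.54, 0.42 to 0.69). Among the higher were Prss34 at 15.69, 19.43 and 7.54 FPKM (1.25, 1.01 to 1.54) and Mcpt8 at 8.97, 15.65 and 5.97 FPKM (1.76, 1.29 to 2.42). Cma1, the called gene, was at 3.08, 7.36 and 3.54 FPKM (2.40, 1.54 to 3.83). With the length trend removed the differences were -0.73 for Ms4a2, 0.04 for Il1rl1, -0.39 for Prss34, -0.17 for Mcpt8 and 0.26 for Cma1. Dendritic cell markers (11 genes, none at 0, Flt3 among them) summed to 503.5, 262.9 and 479.4 FPKM, and 7 were lower and 1, Bst2, higher between mM-CSF and control. Among them Zbtb46 was at 20.1, 1.46 and 13.1 FPKM and the integrin gene Itgax at 163.1, 28.1 and 133.2 FPKM. Without the length trend Bst2 (0.14) and Xcr1 (-0.72) fell short of 2-fold and Tcf4 (1.63) passed it, with a list median of -1.57 in place of -1.55. For sM-CSF against control 0 of the 11 were called, where 2.42% of all genes were called.

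Erythroid progenitor markers (14 genes, none at 0) summed to 3620, 2743 and 2373 FPKM. Against the control 7 of these were lower with mM-CSF and 4 with sM-CSF, and 0 of 14 were called between mM-CSF and sM-CSF. With mM-CSF the median was -1.05, or -1.23 without the length trend. Without it Tfrc (-0.90) and Ermap (-0.91) fell short of 2-fold, while Alas2 (-1.16), Hba-a1 (-1.31) and Hbb-bt (-1.75) passed it. The defining factor gene Klf1 was at 35.4, 26.7 and 23.2 FPKM. Megakaryocyte markers (12 genes, Gp6 at 0 in every library) summed to 26.7, 25.7 and 20.5 FPKM, with Pf4 at 4.12, 6.70 and 3.61 FPKM and 0 genes called. Endothelial markers (12 genes, Sox17 at 0 in every library and Emcn also in the control) summed to 81.3, 66.3 and 77.9 FPKM, and the defining gene Cdh5 was at 0.79, 0.29 and 0.89 FPKM. Stromal markers (10 genes, Pdgfra and Dcn at 0 in every library, Cxcl12, Lum or Col3a1 in 1 or more) summed to 2.76, 1.87 and 1.93 FPKM.

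B cell progenitor markers (8 genes, Vpreb1 at 0 in the control) summed to 59.3, 83.2 and 105.4 FPKM, and the defining gene Dntt was at 1.06, 0.90 and 1.20 FPKM. Most of the sum came from Ebf1, Il7r and Vpreb3. The surrogate light chain genes Igll1 (0.52, 1.09 and 0.92 FPKM) and Vpreb1 (0, 1.55 and 0.75 FPKM) were lowest in the control and highest with mM-CSF, as Sox4 was. They rest on few counts (4, 8 and 7 for Igll1, and 0, 10 and 5 for Vpreb1), and every interval of Igll1 included 1. Rag1 (1.19, 0.15 and 1.09 FPKM) and Rag2 (0.32, 0.03 and 0.26 FPKM) were instead highest in the control and lowest with mM-CSF. Without the length trend their differences between mM-CSF and control were 0.03 and -0.09. B cell (9 genes), T cell (11) and plasma cell (7) markers, none at 0, summed to 1473, 2817 and 2702 FPKM, to 373.9, 704.7 and 640.4 FPKM, and to 1407, 4342 and 1460 FPKM. Innate lymphoid and NK cell markers (10 genes, none at 0) summed to 287.4, 548.9 and 372.7 FPKM, and neutrophil markers (11 genes, none at 0) to 60.4, 284.9 and 70.7 FPKM. Jchain alone gave 1008, 3301 and 1072 FPKM of the plasma cell sums. All 5 of these sums were lowest in the control and highest with mM-CSF, an order shared by Sox4, Cd34, Hoxa9 and Meis1. The FPKM of all genes also summed in this order, to 452400, 624289 and 500018, so the order is no mark of these lists. The single markers did not all follow it: between mM-CSF and sM-CSF 7 of 9 B cell markers were at a lower level with mM-CSF (median -0.44), and T cell markers split 6 to 5. Macrophage markers (12 genes, none at 0) summed to 1614, 3501 and 1557 FPKM. Of these sums C1qa gave 254.4, 1129 and 365.7 FPKM, and C1qb 271.3, 1231 and 385.3 FPKM. Between mM-CSF and control 8 of the 12 had a higher and 4 a lower level, and by the size rule 3 were higher and 1 lower. Without the length trend the 3 stayed past 2-fold, and the lower gene, Mertk, did not (-0.88). Cell cycle markers (15 genes, none at 0) summed to 867.7, 884.9 and 651.6 FPKM, with 2 lower, 0 higher and a median of -0.08 between mM-CSF and control. Neither of the 2, Mki67 (-0.01) and Mcm4 (-0.71), stayed past 2-fold without the length trend.

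The profile of each of the 8 genes over the 3 libraries was set beside 206 other genes of these lists, by the Euclidean distance between centred log2(FPKM + 1) values. With 3 points, many genes are alike. Kit was nearest to Itgax (distance 0.19) and Flt3 (0.24), against a median distance of 1.95. Cd34 was nearest to Tcf4 (0.03) and Cebpa (0.08), Gata2 to Mybl2 (0.04) and Hba-a1 (0.06), and Myb to Msi2 (0.09) and Spi1 (0.10). Sox4 was nearest to Igll1 (0.13) and Cd247 (0.14), Hoxa9 to Cma1 and Ly6g (0.07 each), Hoxa10 to Pf4 (0.11) and Plac8 (0.12), and Meis1 to Lyl1 (0.03) and Wdr5 (0.08).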

How the data were processed

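There is 1 deposited table for each library, with an expected count, a length in bases and an FPKM for every NCBI gene ID, per the file headers. The submitters' processing notes name Bowtie2 (2.2.5) and RSEM without their roles. Sources used here name no genome build. The FPKM values were scaled by the authors; the expected counts, deposited unscaled, were rounded for intervals. Genes not in a table were taken as 0. Symbols came from the RefSeq GRCm38.p6 gene table, and promoter windows from RefSeq, matching all 8 genes.

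Differences are between log2(FPKM + 1) values, a scale that understates changes of low genes. The length trend is the median difference in 20 bins of genes with a mean of at least 5 FPKM, interpolated. The members, 8 pathway lists and 14 marker lists were chosen with earlier results of these data known. From lists, up to 4 genes with the largest difference and 5 FPKM were to be named, with fixed defining markers. Pbx3, Men1, Hoxa3, Hoxa5, Hoxa7, Bst2, Xcr1, Ms4a2, Il1rl1, Vpreb1, Rag1, Rag2, Ermap, Alas2, Hbb-bt and Clec12a fall outside this rule. They were chosen after their values were seen. Python 3.11.15 with scipy 1.17.1 was used, and the steps were tested on simulated libraries.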

Additional observations from a re-analysis of the deposited data

How the results depend on the processing

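Kit was called lower in the mM-CSF library against control and against sM-CSF under all 10 alternatives, and its difference from the control ranged from -2.88 (TPM) to -1.63 (length trend removed). Against the control the count of higher genes went from 0 to 1 with a minimum of 1 FPKM, with no minimum and in CPM (Hoxa9 each time), and to 1 at 1.5-fold (Sox4), while the count of lower genes went from 1 to 2 in TPM, through Myb at -1.01. Against sM-CSF it went from 0 to 1 in CPM (Hoxa9). With a minimum of 5 FPKM, 5 in place of 8 genes were measured. In TPM the all-gene median shifted by -0.45 (mM-CSF against control), -0.14 (sM-CSF against control) and -0.31 (mM-CSF against sM-CSF). Relative to these shifts Myb, Sox4 and Meis1 differed by -0.56, 0.69 and 0.42 between mM-CSF and control, and Sox4 by 0.22 between mM-CSF and sM-CSF. These relative values restate the FPKM differences, apart from the added 1, and are no separate check. Median-of-ratios and upper-quartile scaling moved the all-gene median by 0.13 and 0.10 between mM-CSF and sM-CSF. Over all genes, 878 higher and 1480 lower calls between mM-CSF and control became 281 and 3406 in TPM and 287 and 778 without the length trend. For sM-CSF against control, 76 and 158 became 98 and 364 in TPM, 61 and 244 in CPM and 47 and 173 without the trend. For mM-CSF against sM-CSF, 363 and 836 became 182 and 2174 in TPM, 583 and 614 with median-of-ratios and 541 and 653 with upper-quartile scaling. No paired analysis was possible because each group has 1 library. Depth limits Hoxa10 most, with 4 to 25 counts.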

Other observations

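The length given per gene in the tables is weighted over transcripts and so moves with the mix of transcripts. For Hoxa10 it was 2177 bases in the control and sM-CSF libraries and 2469 in the mM-CSF library, from 6, 4 and 25 counts. For Cd34 it was 2574, 2493 and 2486 bases (control, mM-CSF, sM-CSF). Hoxa9, with 2 transcripts in the table, had 3229 bases in all 3.

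Kit lies between Pdgfra and Kdr, genes of related receptor kinases. Pdgfra was listed in none of the libraries, and Kdr, the VEGF receptor gene of endothelium, was at 1.95, 0.13 and 0.69 FPKM (control, mM-CSF, sM-CSF). Spred2, an inhibitor gene of RAS signalling next to Meis1, was at 7.14, 1.13 and 4.14 FPKM in the same order, while Meis1 itself was at 3.03, 4.09 and 3.07. These neighbours were chosen after their values were seen.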
